A study of Mus musculus with 22 samples.

Results

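The genes described are 4 cadherins (Cdh1, Cdh2, Cdh3 and Cdh11), the epithelial adhesion molecule Epcam and the 5 transcription factors Snai1, Snai2, Zeb1, Zeb2 and Twist1 that repress epithelial genes. They were chosen by gene symbol, as 10 of the 18193 genes measured, with 22 probe sets of the 34945 that carry a single symbol. For each gene the values are those of the probe set that was brightest on average across the 22 arrays, and the other probe sets are given where they differ. Expression is on a log2 scale, as RMA (robust multi-array average) values, so a difference of 1 is a 2-fold change.

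Cadherins are calcium-dependent adhesion proteins that join neighbouring cells at adherens junctions, where their tails bind beta-catenin, p120-catenin and, through alpha-catenin, actin. In an epithelial-mesenchymal transition (EMT) cells lose E-cadherin (Cdh1) and gain N-cadherin (Cdh2), and the SNAI, ZEB and TWIST factors drive this switch by repressing Cdh1 and other epithelial genes through E-box motifs. Mouse embryonic stem (ES) cells are themselves held together by E-cadherin, and beta-catenin serves both the junction and Wnt signalling.

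The cells were Rex1GFPd2 mouse ES cells in medium with N2 and B27 supplements. All groups received PD0325901 (PD), which inhibits MEK. The 2i medium holds PD and CHIR99021, an inhibitor of the kinase GSK3 that lets beta-catenin accumulate, and PD-only medium lacks CHIR99021. The 2i control arm (n = 7) was transfected with siControl#1 (4 arrays) or siControl#2 (3 arrays) and kept in 2i. The PD-only control arm (n = 7) received the same control siRNAs in the same numbers and was moved to PD-only medium after 24 h. The PD-only siYAP/TAZ arm (n = 8) received siYAP/TAZ#1 or siYAP/TAZ#2 (4 arrays each), against the Hippo pathway coactivators YAP and TAZ, and the same change of medium. All cells were harvested 72 h after transfection. The labels give one cell line and no 2i arm with siYAP/TAZ, so the effect of siYAP/TAZ in 2i was not measured.

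The targeted genes were lower in the PD-only siYAP/TAZ arm than in PD-only control, Yap1 by a log2 difference of -1.27 ± 0.03 (SE) and Wwtr1, which encodes TAZ, by -1.04 ± 0.03. All 8 ES cell markers examined, among them Pou5f1 and Nanog, had means above the median of all genes (6.64) in each arm. Their levels still differed. Against PD-only control 6 were called higher and 2 lower in 2i control, and 4 higher and 2 lower with siYAP/TAZ. Over all genes 31.3% and 26.7%, and 35.5% and 26.3%, were called so. Their summed linear level was 69400 to 72700 in 2i control, 59100 to 60500 in PD-only control and 63400 to 65500 in PD-only siYAP/TAZ. Arrays of an arm correlated over genes at 0.998 or more, and the labels call them biological replicates without saying what was repeated. No gene of the 18193, and so none of the 10, was called between the 2 siYAP/TAZ mixes, nor for a medium effect that differed between the 2 control siRNAs. At an unadjusted p below 0.05 (limma) these tests gave 648 and 949 genes. The smallest unadjusted p among the 10 genes was 0.0276 (Zeb2, mix 1 against mix 2, limma) and 0.0434 (Cdh2, the medium effect).

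**Figure D1:**
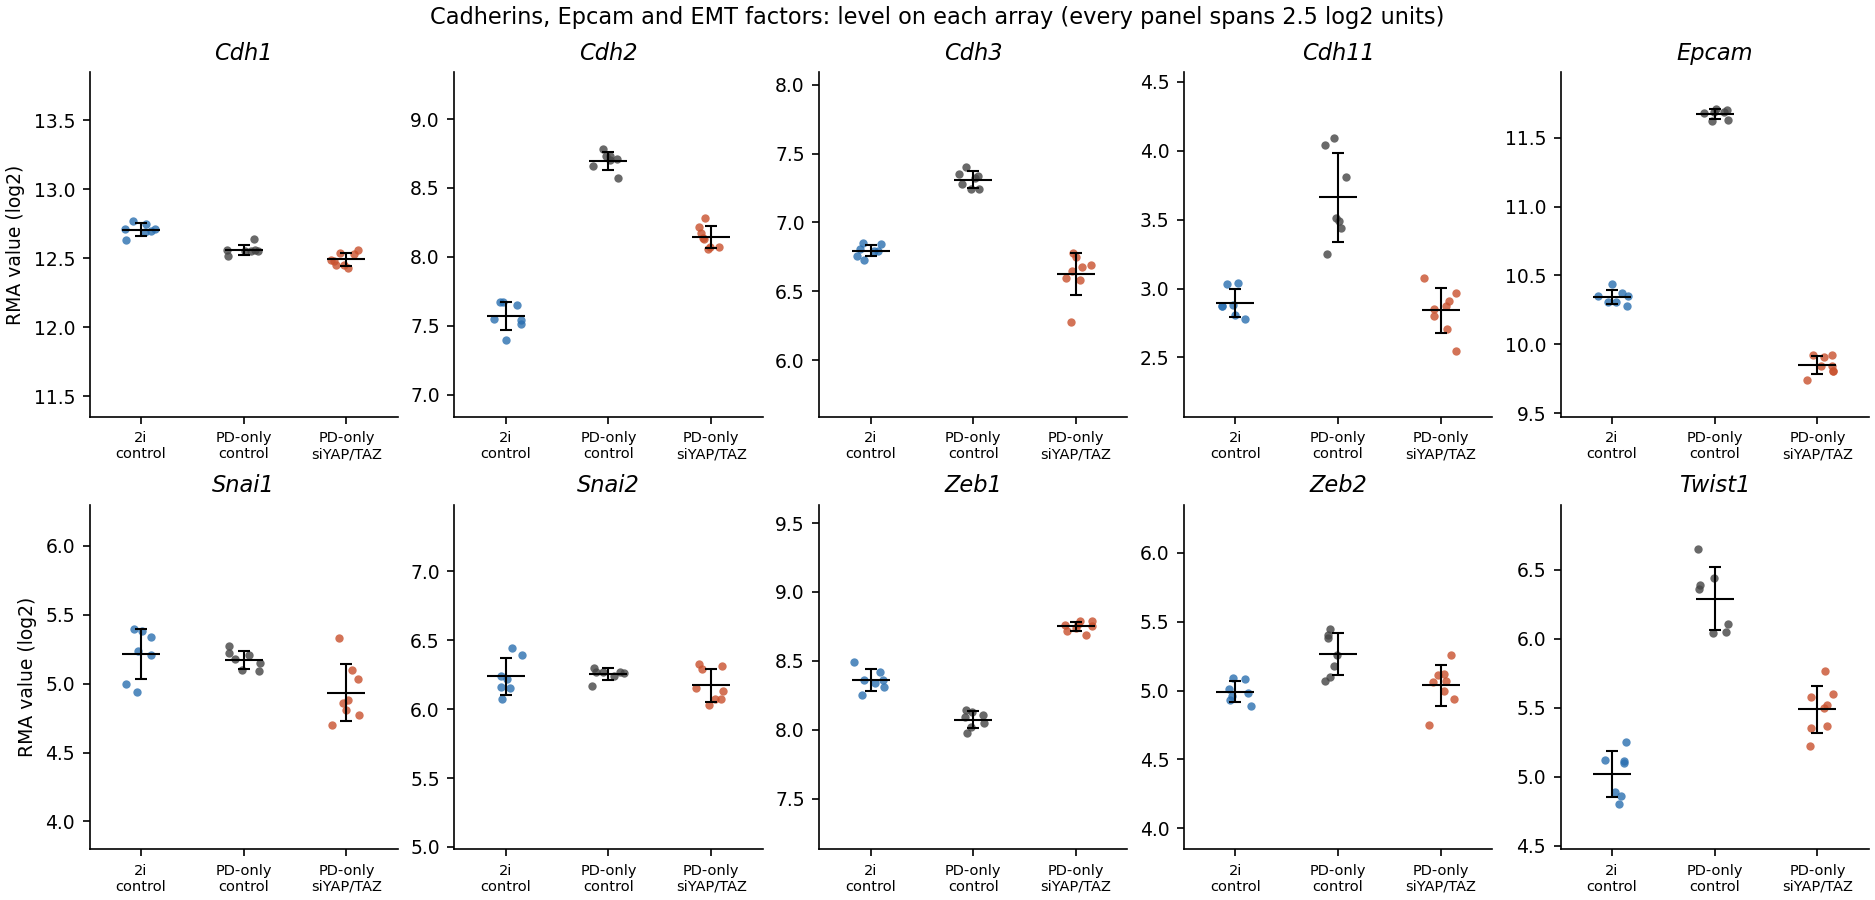
Level of each of the 10 genes on each array (vertical axis, RMA value on the log2 scale) in the 3 arms (horizontal axis). Points are arrays, the long dash is the arm mean and the bar its SD, and every panel spans the same range, so that distances compare between panels. Epcam, Cdh2, Cdh3, Cdh11 and Twist1 were highest in all PD-only control arrays, Zeb1 was lowest there, and for Cdh1, Snai1, Snai2 and this probe set of Zeb2 both other arms overlapped PD-only control.

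The medium comparison sets 2i against PD-only medium, which lacks CHIR99021. A change of medium, after 24 h, is recorded for the PD-only arms alone, and its own part was not tested. In 2i control, Epcam, Twist1 and Cdh2 were at 39.8%, 41.2% and 46.2% of their PD-only control level, Cdh11 and Cdh3 were lower by smaller amounts, and Zeb1 and Cdh1 were slightly higher. Of the 10 genes, 8 were called (limma, Benjamini-Hochberg adjusted p below 0.05 over 18193 genes), 6 lower and 2 higher in 2i control. Among all genes 58.0% were called, 26.7% lower and 31.3% higher. A fall of at least 1 on the log2 scale was seen in 3 of the 10 genes and in 4.12% of all genes; for Zeb2 this rests on the brightest probe set (-0.27), and 3 of its 5 probe sets fell by more than 1. The arrays of the arms did not overlap for 6 of the 10 genes, against 37.6% of all genes.

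The siYAP/TAZ comparison asks what loss of YAP and TAZ changes in PD-only medium. Epcam fell to 28.2% of PD-only control, Cdh3, Cdh2, Cdh11 and Twist1 fell by less than 2-fold, and Zeb1 was 1.6-fold higher. Of the 10 genes, 9 were called, 8 lower and 1 higher, against 61.8% of all genes, 26.3% lower and 35.5% higher. A fall of at least 1 on the log2 scale was seen in 1 of the 10 genes, Epcam, and in 4.47% of all genes. Here too Zeb2 is counted by its brightest probe set (-0.23), while 3 of the 5 fell by more than 1. The arms did not overlap for 6 of the 10, against 40.4% of all genes. These comparisons share the PD-only control arrays, so that an error in those arrays enters both.

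The 2 arms were then compared directly. In PD-only siYAP/TAZ against 2i control, 7 of the 10 genes were called, 3 higher (Cdh2, Twist1 and Zeb1) and 4 lower (Epcam, Cdh1, Snai1 and Cdh3), none by 2-fold. Among all genes 48.3% were called, 25.5% higher and 22.8% lower. The arms did not overlap for 4 of the 10 genes (Cdh1, Cdh2, Epcam and Zeb1), against 28.3% of all genes. With arrays centred on the mean of 11 control genes, an alternative scaling, the Cdh1 difference between siYAP/TAZ and PD-only control changed sign (0.17), as did those of Snai1 (0.002) and Zeb2 (0.007). With the median of the control genes in place of their mean, these differences were 0.026, -0.14 and -0.13, none of them called. Of the control genes, B2m was lower by more than 2-fold in this comparison. The directions of Epcam, Cdh2, Cdh3, Cdh11, Twist1 and Zeb1 in both comparisons with PD-only control were kept under every scaling tried.

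**Figure D2:**
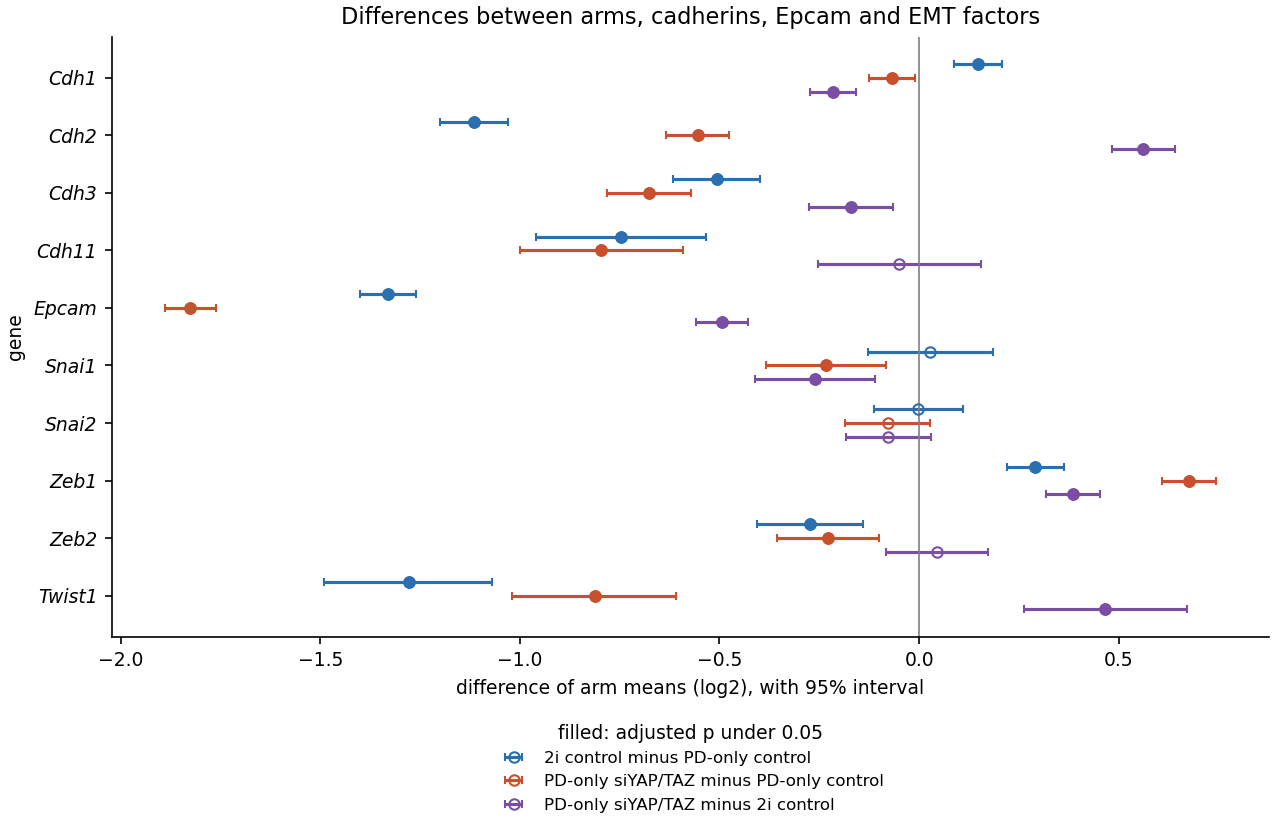
Log2 difference of arm means (horizontal axis) for each gene (vertical axis) in the 3 comparisons, given by colour, with the 95% interval of limma's fit. Filled points passed the adjusted p of 0.05 and open points did not; the Epcam difference between siYAP/TAZ and PD-only control, -1.83, is the farthest from 0.

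E-cadherin (Cdh1), the main cadherin of ES cell junctions, was bright and nearly level. It ranged from 12.63 to 12.77 in 2i control (median 12.71), from 12.52 to 12.64 in PD-only control (median 12.55) and from 12.43 to 12.56 in PD-only siYAP/TAZ (median 12.49). The 2i arrays lay above all siYAP/TAZ arrays, while each overlapped PD-only control. The level was 0.15 ± 0.03 (SE) higher in 2i control than in PD-only control (adjusted p = 0.000143), a 1.11-fold difference. It was 0.22 ± 0.03 lower in siYAP/TAZ than in 2i control (log2 difference -0.22, adjusted p = 1.15e-06). The difference between siYAP/TAZ and PD-only control was -0.07 ± 0.03, to 95.4% (adjusted p = 0.0374), and this call was lost when any of 8 single arrays was left out (adjusted p of 0.0524 to 0.0831). These were siControl#1 PD-only replicate D, siControl#2 PD-only replicates A and B, siYAP/TAZ#1 replicates B and D, and siYAP/TAZ#2 replicates B, C and D. With the Actb 3′ to 5′ contrast, a measure of RNA quality, as a covariate, the 2i difference of 0.13 missed the threshold too (adjusted p = 0.0598).

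N-cadherin (Cdh2), the cadherin of neural and mesenchymal cells, took a different level in each arm. It lay between 7.40 and 7.67 in 2i control (median 7.55), between 8.57 and 8.78 in PD-only control (median 8.71) and between 8.06 and 8.28 in PD-only siYAP/TAZ (median 8.14). No 2 arms overlapped. Compared with PD-only control the level was lower by a log2 difference of -1.12 ± 0.04 in 2i control (adjusted p = 1.19e-15), to 46.2%. In siYAP/TAZ it was lower by -0.55 ± 0.04 (adjusted p = 5.84e-11), to 68.1%. The direct difference between siYAP/TAZ and 2i control was 0.56 ± 0.04 (adjusted p = 1.1e-10). The other Cdh2 probe set gave -1.33, -0.74 and 0.60 for the same 3 comparisons, with its arms equally apart: 6.67 to 6.98, 8.02 to 8.26 and 7.26 to 7.49.

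P-cadherin (Cdh3) is a classical cadherin of basal epithelia and placenta, and its gene is the neighbour of Cdh1 on mouse chromosome 8, with no protein-coding gene between them in the GRCm38.p6 annotation. In 2i control against PD-only control, Cdh1 was higher and Cdh3 lower. With siYAP/TAZ both means were lower than in either other arm. For Cdh1 against PD-only control this was by -0.07 alone, with overlapping arrays and a call that leaving out single arrays removed. Cdh3 ranged from 6.73 to 6.85 in 2i control (median 6.79), from 7.24 to 7.40 in PD-only control (median 7.32) and from 6.28 to 6.78 in PD-only siYAP/TAZ (median 6.67). The PD-only control arrays were above all others. The differences from PD-only control were -0.51 ± 0.05 in 2i control (adjusted p = 3.83e-08) and -0.68 ± 0.05 in siYAP/TAZ (adjusted p = 2.18e-10). Against 2i control, siYAP/TAZ was lower by -0.17 ± 0.05 (adjusted p = 0.0079), with overlapping arrays, and siControl#1 and siYAP/TAZ#1 alone did not give this call (-0.11, adjusted p = 0.218). The dimmer Cdh3 probe set had arm means of 4.11, 4.20 and 4.07 and was called for siYAP/TAZ against PD-only control alone (-0.14).

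OB-cadherin (Cdh11), a cadherin of mesenchymal and bone-forming cells, was near the low end of the arrays' range. It lay between 2.78 and 3.04 in 2i control (median 2.87), between 3.25 and 4.09 in PD-only control (median 3.51) and between 2.55 and 3.08 in PD-only siYAP/TAZ (median 2.86). All PD-only control arrays were above all others, and they were also the most spread (SD 0.32). The differences from PD-only control were -0.75 ± 0.10 (adjusted p = 1.91e-06) and -0.80 ± 0.10 (adjusted p = 4.36e-07). That between siYAP/TAZ and 2i control was -0.05, with a 95% interval of -0.25 to 0.16. A second, dimmer Cdh11 probe set had means of 2.56, 2.60 and 2.60 and gave no call.

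Epcam, a homophilic adhesion protein of epithelia and ES cells that is no cadherin, differed most from PD-only control among the brightest probe sets. It ranged from 10.28 to 10.44 in 2i control (median 10.35), from 11.62 to 11.71 in PD-only control (median 11.69) and from 9.74 to 9.92 in PD-only siYAP/TAZ (median 9.84). The arms were fully apart, and siYAP/TAZ lay below 2i control. Compared with PD-only control, Epcam was lower by -1.33 ± 0.03 in 2i control (adjusted p = 2.15e-18), to 39.8%. In siYAP/TAZ it was lower by -1.83 ± 0.03 (adjusted p = 6.72e-21), a 3.54-fold difference, with 308 of 18193 genes showing a lower value. The siYAP/TAZ mixes had means of 9.87 ± 0.06 and 9.83 ± 0.07 (SD, n = 4 each). The direct difference from 2i control was -0.49 ± 0.03 (adjusted p = 3.69e-11). A dimmer Epcam probe set of the kind that can cross-hybridise moved the same way, by -0.43, -0.62 and -0.19.

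The repressors did not move as one. Snai1 ranged from 4.94 to 5.40 in 2i control (median 5.24), from 5.09 to 5.27 in PD-only control (median 5.18) and from 4.70 to 5.33 in PD-only siYAP/TAZ (median 4.87), with every pair of arms overlapping. Its difference between 2i and PD-only control was 0.03, with a 95% interval of -0.13 to 0.19. It was lower in siYAP/TAZ than in PD-only control (-0.23 ± 0.07, adjusted p = 0.00834) and than in 2i control (-0.26 ± 0.07, adjusted p = 0.00468). Neither call was made by siControl#2 and siYAP/TAZ#2 alone (-0.12 with adjusted p = 0.364, and -0.06 with adjusted p = 0.725).

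Snai2, the SLUG factor of neural crest, passed in no comparison with either of its probe sets. The dimmer one had arm means of 4.50, 4.59 and 4.57. Its differences were -0.09, -0.02 and, for siYAP/TAZ against 2i control, 0.07, where the brighter one gave -0.08. The brighter one, used here, is of the kind that can cross-hybridise. It ranged from 6.07 to 6.44, 6.17 to 6.30 and 6.03 to 6.33 in the 2i, PD-only and siYAP/TAZ arms. The medians were 6.22, 6.27 and 6.14. The arms overlapped throughout. The 95% interval of the difference was -0.11 to 0.11 for 2i control against PD-only control and -0.19 to 0.03 for siYAP/TAZ against PD-only control. Leaving out siYAP/TAZ#2 replicate D brought the latter, at -0.11, to an adjusted p of 0.0478, and leaving out siControl#2 2i replicate B brought siYAP/TAZ against 2i control, at -0.12, to 0.049.

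Zeb1, a zinc-finger repressor of Cdh1 and Epcam, was the one gene of the 10 that was lowest in PD-only control and higher in both other arms without overlap. It lay between 8.25 and 8.49 in 2i control (median 8.36), between 7.98 and 8.14 in PD-only control (median 8.09) and between 8.69 and 8.79 in PD-only siYAP/TAZ (median 8.76). No arms overlapped, and siYAP/TAZ was the highest. The differences from PD-only control were 0.29 ± 0.03 in 2i control (adjusted p = 2.08e-07) and 0.68 ± 0.03 in siYAP/TAZ (adjusted p = 1.73e-13), and siYAP/TAZ exceeded 2i control by 0.38 ± 0.03 (adjusted p = 3.1e-09). The other 3 Zeb1 probe sets were dimmer: those with PD-only control means of 5.28 and 4.91 were higher with siYAP/TAZ (0.31 and 0.27), and that at 3.12 was lower (-0.22). None of these 3 was called for 2i control against PD-only control, and with the mean of all Zeb1 probe sets that difference was 0.04 (adjusted p = 0.26).

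Zeb2, the related SIP1 factor, depended on the probe set read. The brightest one ranged from 4.89 to 5.09 in 2i control (median 4.98), from 5.07 to 5.45 in PD-only control (median 5.26) and from 4.75 to 5.26 in PD-only siYAP/TAZ (median 5.07). Its arms overlapped, with differences from PD-only control of -0.27 ± 0.06 (adjusted p = 0.000896) and -0.23 ± 0.06 (adjusted p = 0.00288). With arrays centred on the mean or the median of the control genes the former was not called (-0.05 with adjusted p = 0.446, and -0.14 with adjusted p = 0.118). Nor was the latter (0.007 with adjusted p = 0.911, and -0.13 with adjusted p = 0.112). The latter was also not called with siControl#1 and siYAP/TAZ#1 alone (-0.10, adjusted p = 0.319).

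The other 4 Zeb2 probe sets were all higher in PD-only control than in either other arm, with no overlap, 3 of them by more than 1 and the last by less. The one that differed most ranged from 2.66 to 3.10 in 2i control (median 2.90), from 5.32 to 6.13 in PD-only control (median 5.69) and from 2.87 to 3.31 in PD-only siYAP/TAZ (median 3.01). Its differences from PD-only control were -2.79 ± 0.10 and -2.63 ± 0.09, with adjusted p of 8.24e-16 and 1.02e-15 over 34945 probe sets. The next had values of 3.28 to 3.95, 5.68 to 6.40 and 3.32 to 3.98, with differences of -2.43 ± 0.13 and -2.41 ± 0.12. The last 2 differed by -1.96 and -1.86, and by -0.75 and -0.74. None of the 5 Zeb2 probe sets was called between siYAP/TAZ and 2i control. Over all single-symbol probe sets 23.9% were called lower in 2i control and 23.8% lower with siYAP/TAZ than in PD-only control. Which transcript end or exon each probe set reads was not analysed here.

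**Figure D3:**
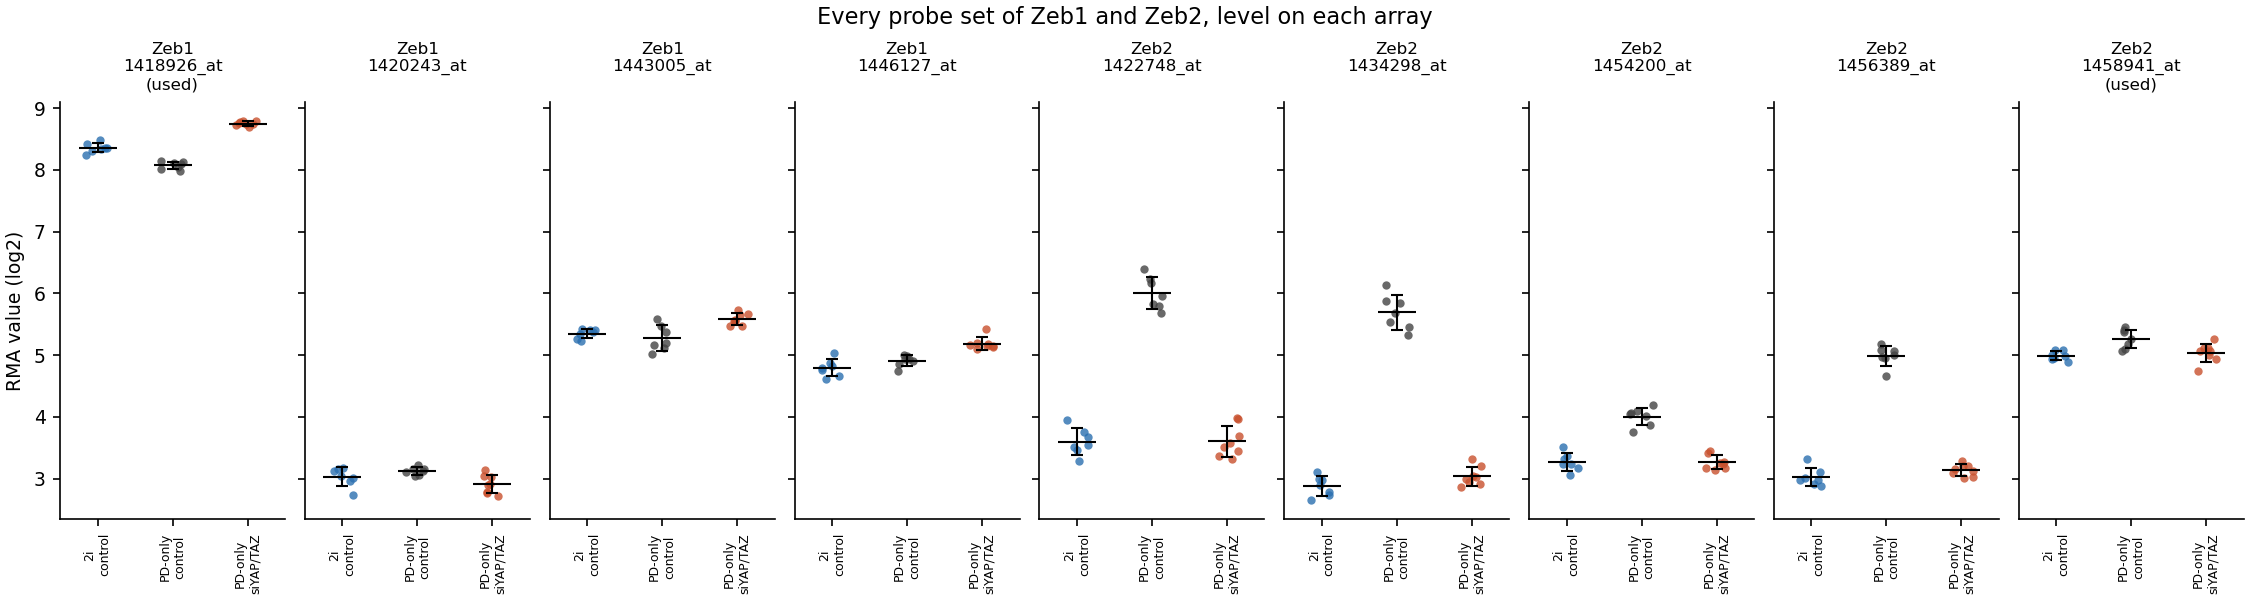
Level on each array (vertical axis, RMA value on the log2 scale) for the 4 probe sets of Zeb1 and the 5 of Zeb2 in the 3 arms (horizontal axis); points are arrays, with arm mean and SD, and "used" marks the brightest. At 4 of the 5 Zeb2 probe sets the PD-only control arrays stand above all others, by up to 2.79 between arm means, and at the used one the arms overlap.

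Twist1, a basic helix-loop-helix factor of mesoderm and neural crest mesenchyme, was in the middle with siYAP/TAZ. It ranged from 4.80 to 5.25 in 2i control (median 5.10), from 6.04 to 6.65 in PD-only control (median 6.36) and from 5.22 to 5.77 in PD-only siYAP/TAZ (median 5.51). PD-only control lay above both other arms, which overlapped at their edges. The differences from PD-only control were -1.28 ± 0.10 (adjusted p = 7.05e-10), to 41.2%, and -0.81 ± 0.10 (adjusted p = 3.34e-07), to 57%. Against 2i control siYAP/TAZ was higher by 0.47 ± 0.10 (adjusted p = 0.000415). Twist1, Zeb2, Snai1, Snai2 and Cdh11 lay below the median of all genes in every arm, where array background compresses differences. No gene's level is set against another's here, since probe sets differ in their response.

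Promoters are shown for Epcam, Twist1 and Zeb2, the genes lower in both arms than in PD-only control for which the sequence table used here has an entry. Each is the 250 bases before the first start site of the RefSeq annotation of GRCm38.p6, read 5′ to 3′ on the gene's strand. They lie at chr17:87635729-87635978 (plus strand, Epcam), chr12:33957421-33957670 (plus strand, Twist1) and chr2:45117443-45117692 (minus strand, Zeb2). Capitals mark the E-box that SNAI and ZEB factors bind, searched as CAGGTG on both strands (CACCTG when read on the other).
Epcam: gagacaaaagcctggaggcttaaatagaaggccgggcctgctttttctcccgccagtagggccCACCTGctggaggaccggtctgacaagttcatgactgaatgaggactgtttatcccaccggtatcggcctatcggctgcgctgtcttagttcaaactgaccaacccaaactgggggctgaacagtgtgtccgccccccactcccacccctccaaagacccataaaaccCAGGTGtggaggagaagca
Twist1: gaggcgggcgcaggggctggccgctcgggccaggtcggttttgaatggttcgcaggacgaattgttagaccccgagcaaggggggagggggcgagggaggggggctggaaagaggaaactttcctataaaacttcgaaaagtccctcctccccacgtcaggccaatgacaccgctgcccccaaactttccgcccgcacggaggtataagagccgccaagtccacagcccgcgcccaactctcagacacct
Zeb2: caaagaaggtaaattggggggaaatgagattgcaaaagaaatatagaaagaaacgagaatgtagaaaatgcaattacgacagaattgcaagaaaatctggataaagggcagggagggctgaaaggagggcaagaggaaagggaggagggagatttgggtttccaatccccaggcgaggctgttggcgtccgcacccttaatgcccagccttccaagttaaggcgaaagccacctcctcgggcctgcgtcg
The Epcam window holds 2 such E-boxes, 187 and 19 bases before the start, as do 2.06% of 32851 promoters with at least 2. At least 1 is held by 17.2% of promoters. None is present in the Twist1 and Zeb2 windows. The 6-letter core of TCF/LEF factors, CTTTGA (13.8% of promoters), and that of TEAD factors, the DNA-binding partners of YAP and TAZ, GGAATG (12.6%), were absent from these 3 windows on both strands. The table has 4 start sites for Zeb2: the windows of the other 3, not printed, hold no E-box and no TCF/LEF core, and that of the fourth start holds 1 TEAD core at 157 bases. The 250-base window of Snai1, also in the table, holds 1 E-box at 126 bases. These are matches of letters, and no binding was measured.

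By a rule of likeness (smallest root-mean-square difference of centred log2 values over the 22 arrays, among 9432 genes), the genes closest to Epcam were Basp1 (0.08), Cited2 (0.08) and Ajuba (0.08). Cited2, for example, had differences from PD-only control of -1.32 in 2i control and -1.89 in siYAP/TAZ. Those closest to Cdh2 were Pik3ip1 (0.06), Vav2 (0.09) and Gng10 (0.09), and Pik3ip1 had differences of -1.07 and -0.52. The other genes of the 10 were not searched, since their arm means spanned less than 1 or lay below the median of all genes.

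Among 17 other cadherins, 11 were not called between 2i and PD-only control, 4 were higher and 2 lower, and with siYAP/TAZ 10 were not called, 5 were higher and 2 lower. Only 3 of the 17 reached the median of all genes in any arm. For this and the later lists, the shares over all genes were 31.3% higher and 26.7% lower in 2i control. With siYAP/TAZ they were 35.5% higher and 26.3% lower. When only genes that reached the median in some arm were tested, 82.1% and 84.6% were called in these comparisons. Cdh9, a type II cadherin, had arm means of 6.11 in 2i control, 7.14 in PD-only control and 5.87 in PD-only siYAP/TAZ, with differences from PD-only control of -1.05 ± 0.07 and -1.28 ± 0.07 (adjusted p = 1.17e-10 and 2.05e-12). Cdh4 (R-cadherin) went the other way, with means of 6.94, 6.17 and 6.55 and differences of 0.77 ± 0.06 and 0.38 ± 0.06.

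Of 19 catenins and adherens junction partners, 8 were higher and 8 lower in 2i control than in PD-only control. With siYAP/TAZ 6 were higher and 9 lower. Of the 19, 16 reached the median of all genes in some arm, where most genes were called. Ajuba, a LIM protein of junctions and a Hippo pathway regulator, had means of 10.68, 12.03 and 10.33 and fell with siYAP/TAZ by -1.70 ± 0.03 (adjusted p = 1.35e-21). Vcl (vinculin) fell by -1.22 ± 0.02 (means 10.48, 11.53 and 10.30), and Lima1, an actin-bundling protein, rose by 1.08 ± 0.03 (means 11.71, 10.44 and 11.52). Jup, which encodes plakoglobin, and Ctnnd2 were lower in siYAP/TAZ than in 2i control by -0.33 ± 0.04 and -0.33 ± 0.03.

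Of 22 regulators and components of the epithelial state, 15 were lower and 3 higher in 2i control than in PD-only control (median -0.39, against 0.04 over all genes). With siYAP/TAZ 16 were lower and 4 higher (median -0.76, against 0.06). Esrp1, the epithelial splicing regulator, had means of 5.91, 9.94 and 6.91, and fell by -4.03 ± 0.07 in 2i control and -3.04 ± 0.06 with siYAP/TAZ. Prss8, a membrane protease of epithelia, fell by -2.37 ± 0.08 and -2.49 ± 0.08, and the polarity gene Pard6b by -1.90 ± 0.05 and -1.96 ± 0.04. Crb3, an apical polarity protein, had means of 7.24, 7.79 and 6.04 and was lower in siYAP/TAZ than in 2i control by -1.20 ± 0.05. Spint2, an inhibitor of membrane proteases, was also lower there by -0.89 ± 0.02.

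Genes of the mesenchymal state had counts in the same direction. Of 20, 15 were lower and 2 higher in 2i control (median -0.94), and 15 were lower and 2 higher with siYAP/TAZ (median -0.81). Axl, a receptor tyrosine kinase, had means of 5.19, 8.11 and 5.05 and fell by -2.92 ± 0.06 and -3.07 ± 0.05. Sparc, a matrix protein, fell by -2.09 ± 0.03 and -2.12 ± 0.03. Vimentin (Vim) had means of 10.35, 11.95 and 11.30, so that siYAP/TAZ was above 2i control by 0.96 ± 0.04. Lgals1 likewise was above 2i control by 1.34 ± 0.03, while Mmp2, a matrix metalloproteinase, was below it by -1.24 ± 0.06.

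Of 18 other EMT transcription factors, 10 were lower and 3 higher in 2i control than in PD-only control (median -0.20, against 0.04 over all genes). With siYAP/TAZ 8 were lower and 5 higher (median 0.01, against 0.06). Sox11 had means of 8.05, 10.60 and 7.37 and fell by -2.53 ± 0.05 and -3.22 ± 0.05. Prrx2, a mesenchymal homeobox factor, fell by -2.69 ± 0.08 and -1.55 ± 0.08, and Sox4 fell with siYAP/TAZ by -1.51 ± 0.03. Tcf4, the E-protein, rose by 1.28 ± 0.03 in 2i control and was also higher with siYAP/TAZ than in PD-only control (means 9.96, 8.67 and 9.29).

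TGF-beta signalling, a known inducer of EMT, was represented by 15 ligands, receptors and SMAD genes. In 2i control 9 were lower and 3 higher than in PD-only control (median -0.37), and with siYAP/TAZ 11 were lower and 2 higher (median -0.20). The ligand Tgfb2 had means of 6.32, 9.99 and 5.70 and fell by -3.68 ± 0.06 and -4.29 ± 0.06 (adjusted p = 8.94e-21 and 3.85e-22). Its receptor Tgfbr2 fell by -1.61 ± 0.07 and -2.08 ± 0.07, and Ltbp1, which holds latent TGF-beta in the matrix, by -1.65 ± 0.04 and -1.39 ± 0.04. Smad7, an inhibitory SMAD, was lower in siYAP/TAZ than in 2i control by -0.52 ± 0.03, and Skil, a SMAD corepressor, was higher by 0.52 ± 0.02.

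The list directions depended on the scaling for some lists. With arrays centred on the mean of the control genes, the median of all genes moved to 0.27 in 2i control and 0.30 with siYAP/TAZ, against PD-only control. Centring on their median moved it to 0.18 and 0.155. Of the 11 control genes, only B2m was lower by at least 2-fold in these comparisons, and an outlying gene shifts a mean more than a median. Under mean centring the share of all called genes that were higher moved from 54% to 83.5% and from 57.4% to 83.8%. Under median centring it was 77.1% and 72.6%, and 42.2% in place of 52.9% between siYAP/TAZ and 2i control. Under mean centring the TGF-beta list had 7 higher and 8 lower in 2i control and 5 higher and 7 lower with siYAP/TAZ. The other EMT factors had 6 higher and 6 lower, and 10 higher and 6 lower. More genes were lower than higher among epithelial genes (11 against 8, and 15 against 6) and mesenchymal genes (13 against 4, and 13 against 5). The other cadherins had 14 and 15 higher genes, and the junction partners 11 and 12. With the median of the control genes the TGF-beta list had 4 higher and 8 lower in 2i control, and 3 higher and 9 lower with siYAP/TAZ. The other EMT factors then had 5 higher and 6 lower, and 7 higher and 7 lower. Epithelial genes had 12 lower against 6 higher, and 16 against 5, and mesenchymal genes 13 against 4, and 13 against 2. The other cadherins then had 10 and 7 higher genes, and the junction partners 9 and 7.

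**Figure D4:**
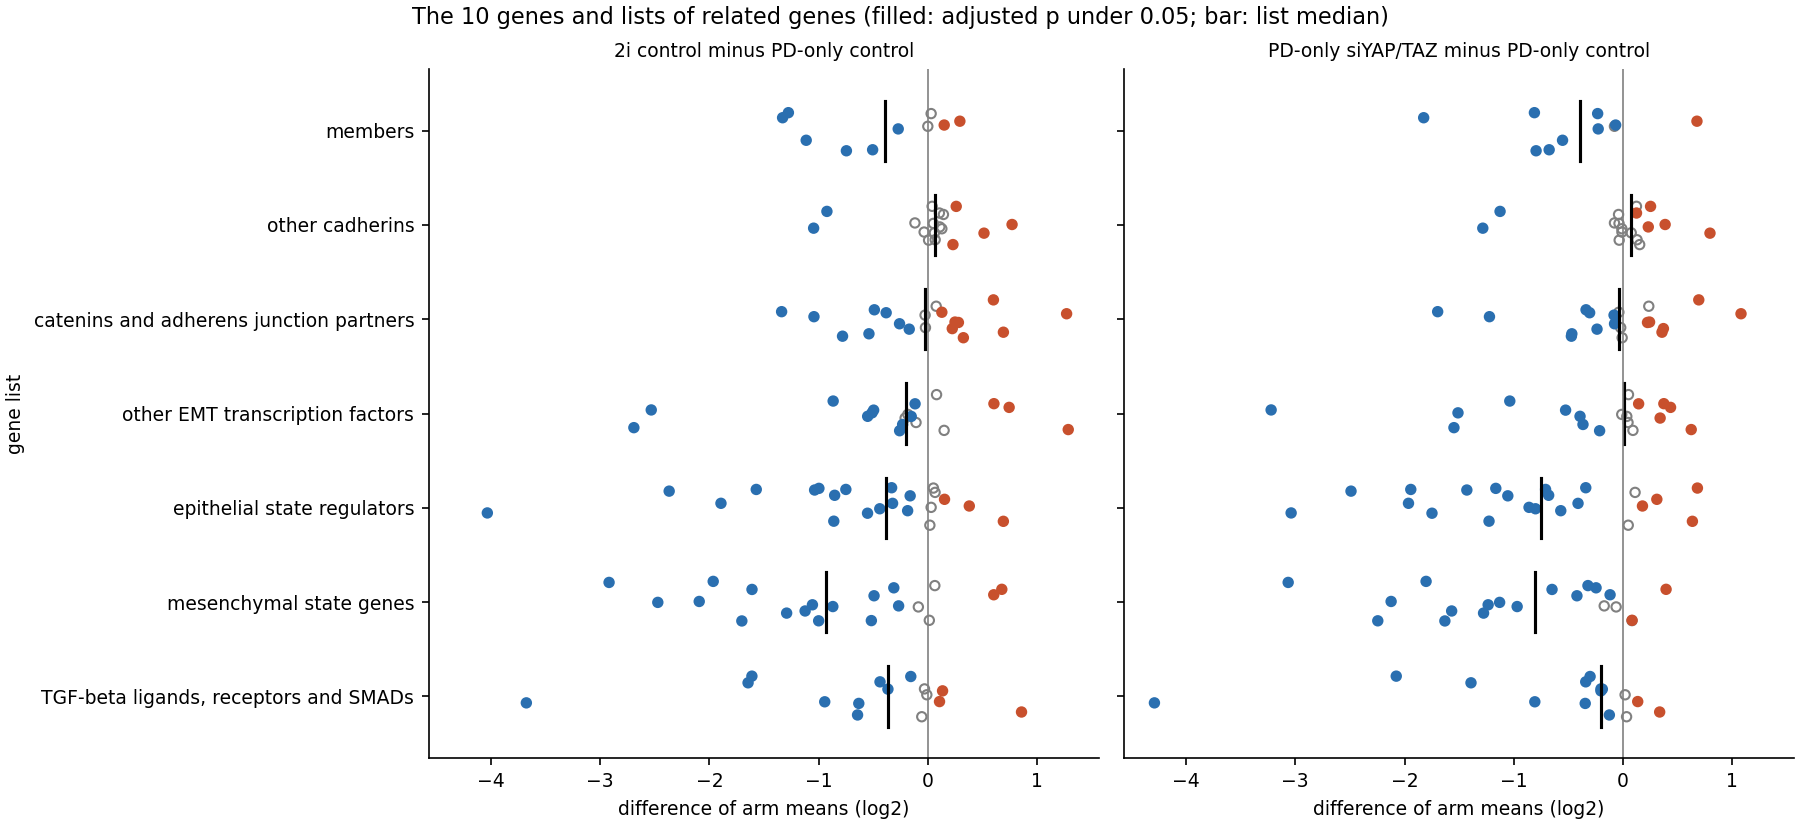
Log2 difference of arm means (horizontal axis) of the 10 genes and of the genes of 6 lists (vertical axis), for 2i control and for PD-only siYAP/TAZ, each against PD-only control. Points are genes, blue for called lower, red for called higher and open for not called, and the black bar is the list median, which is -0.76 for epithelial regulators with siYAP/TAZ and -0.94 for mesenchymal genes in 2i control.

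Most markers of fibroblasts, such as feeder cells, were highest in PD-only control. So were Epcam, Cdh2, Cdh3, Cdh11, Twist1 and the 4 dimmer Zeb2 probe sets. In siYAP/TAZ, Cdh2 and Twist1 stayed above 2i control (0.56 and 0.47), while Epcam and Cdh3 lay below it (-0.49 and -0.17). Of 10 such fibroblast markers 8 were lower in 2i control than in PD-only control and 7 lower with siYAP/TAZ, none higher. Over all genes 26.7% and 26.3% were lower. Between siYAP/TAZ and 2i control, 2 of the markers were higher, 1 was lower and 7 were not called. Their summed linear level was 248 to 298 in 2i control, 1910 to 2070 in PD-only control and 288 to 320 in PD-only siYAP/TAZ. Col1a2 had means of 5.16, 9.73 and 5.24 and Postn of 4.52, 7.69 and 4.68, while the fibroblast genes Lum and Fap stayed between 2.98 and 3.23 in all arms. The summed level of 9 primitive endoderm markers was 285 to 309, 543 to 597 and 273 to 321 in the same order of arms, and that of 9 trophoblast markers 1060 to 1110, 1790 to 2080 and 1410 to 1690. Neural crest markers (8 genes) summed to 1430 to 1510, 1840 to 1980 and 1530 to 1630, and 9 mesoderm and primitive streak markers to 329 to 379, 419 to 478 and 432 to 474. Such sums weigh bright genes most, and the calls against PD-only control were mixed. In 2i control 1 endoderm, 2 trophoblast, 3 neural crest and 0 mesoderm markers were higher, and 4, 5, 2 and 1 lower. With siYAP/TAZ 1, 3, 3 and 5 were higher and 3, 4, 3 and 1 lower. The part of such cells in the results was not tested, and in bulk RNA fewer cells of a type and less RNA per cell cannot be told apart.

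Signs of RNA quality also differed between arms. The Actb 3′ minus 5′ difference had arm means of 0.97 ± 0.10, 0.72 ± 0.04 and 0.98 ± 0.06 (SD) for 2i control, PD-only control and PD-only siYAP/TAZ, where a larger value means a weaker 5′ signal. PD-only control was lower than each other arm (two-sided exact permutation test, p = 0.000583 and 0.000311, both 0.00117 after adjustment over 6 tests). With this measure as a covariate, 1 of the genes called in 2i control and 1 of those called with siYAP/TAZ lost the call, Cdh1 in both comparisons.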

How the data were processed

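Biotin-labelled RNA of 22 cultures was read on Affymetrix mouse arrays, 1 per culture, after 3′ in vitro transcription, per the labels' protocols. The deposited values are log2 expression values per probe set, rounded to 2 decimals. They were made with RMA, per the submitters' processing notes, whose version is not given in the sources used here. RMA makes the arrays' distributions alike, so a change in total RNA per cell cannot be seen. Of 45101 probe sets, 34945 carry 1 gene symbol (932 several, 9160 not listed in the annotation).

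A mean for each of the 6 groups was fitted with limma 3.58.1 (R 4.3.3), arms were contrasted with equal weight per siRNA, and p-values were adjusted by Benjamini-Hochberg over 18193 genes. The scripts were tested on simulated data. The labels do not say what the replicate letters stand for, and the main fit did not pair samples by them. Deviations were correlated above 0.1 in 2 of 51 same-letter pairs of arrays and 4 of 150 different-letter pairs. Whether arrays of a letter shared a batch was not tested. In each related list and comparison, up to 3 called genes with the largest difference are named, if some arm's mean reached the all-gene median. Markers and quality measures are named as stated. The genes and lists were chosen with earlier results of these data known. One scaling, the median of the control genes, was added after the data were seen.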

Additional observations from a re-analysis of the deposited data

Results flagged for a closer look

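Cdh1 in siControl#1 PD-only replicate D was 12.64, while the other 3 arrays of its group were all 12.55, so that this array stood apart from the others by the whole range of the group. Values are rounded to 2 decimals. Of 40 groups of 4 arrays examined over the 10 genes this was 1, and chance gives about 1 in 20. Without it the difference between PD-only siYAP/TAZ and PD-only control was -0.06 (adjusted p = 0.0831, limma) in place of -0.07.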

How the results depend on the processing

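The 30 differences (10 genes, 3 comparisons) were recomputed with each of the 22 arrays left out and under 18 other settings, 962 values in all. Of these, 44 lost the call and 3 gained it with the sign kept, and 6, called before or after, changed sign. Some of these 6 lost or gained the call as well. The remaining 909 were called or not called as before. Values called neither before nor after count among these 909 even where their sign changed. With arrays centred on the mean of the control genes, the sign changed for Snai2 in 2i control (0.22) and, for siYAP/TAZ against PD-only control, for Cdh1 (0.17), Snai1 (0.002), Snai2 (0.16) and Zeb2 (0.007). With their median, Cdh1 changed sign (0.026). The control list holds B2m, whose log2 differences in those comparisons were -1.38 and -2.37. With dim genes left out 5 of the 10 genes were tested, and 5 were called in both comparisons with PD-only control, where 82.1% and 84.6% of all genes left were called. With a log2 difference of at least 1 required, 3, 1 and 0 were called in 2i control, with siYAP/TAZ, and between siYAP/TAZ and 2i control. Among all 18193 genes these calls numbered 1057, 1158 and 275. With the replicate block 8, 8 and 7 were called, against 10542, 11261 and 8714 of all 18193 genes. Cdh1 with siYAP/TAZ lost its call under this block (limma, adjusted p = 0.0538). With the probe set of largest variance Zeb2 differed by -2.79 and -2.63. The number of arrays limits the precision, dim probe sets compress differences, and with no scan dates used here, arm and any batch cannot be told apart. In the settings with an adjusted p of 0.01 or a log2 difference of at least 1, the fit was the main one and only the cut-off differed. The cause of the other lost and changed calls was not tested.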
